A study of Mus musculus with 4 samples.

Results

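The Il7r-high cells described here are activated CD8+ T cells that carried 3 or more unique molecular identifiers (UMIs, one per captured transcript) of Il7r and none of Tcf7. A barcode counted as a cell when it had at least 6500 UMIs, at least 500 genes and under 10% of its UMIs in mitochondrially encoded genes. Of 9921 cells in the 4 libraries, 1139 (11.5%) were Il7r-high without a Tcf7 UMI. They were set against the 4314 cells (43.5%) with no UMI of either gene, called Il7r-negative below, of the same library. Il7r and Tcf7 UMIs chose the cells, so the levels of these genes are no result and both were left out of every test.

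All cells came from the spleens of gBT-I.CD45.1 transgenic mice, whose T cells carry a T cell receptor for a herpes simplex virus glycoprotein B peptide. Splenocytes were activated with peptide-pulsed B6 spleen cells and LPS and kept in recombinant human IL-2. Each of 2 mice gave a control culture (PBS) and a culture with 0.5 mM sodium butyrate from day 3 to day 5, and live cells positive for CD8 and Vα2 were sorted on day 6 for capture. Each condition therefore has 2 libraries, replicate 1 from one mouse and replicate 2 from the other, all labelled batch 1. The cells saw IL-2 throughout and no added IL-7 is named in the labels.

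Il7r (ENSMUSG00000003882, chromosome 15, 9505788 to 9530176, GRCm38) encodes the alpha chain of the IL-7 receptor, which pairs with the common gamma chain Il2rg and signals through JAK1, JAK3 and STAT5. IL-7 keeps naive and memory T cells alive, and the receptor falls on most T cells after activation. Il7r is a target of the transcription factor FOXO1, which also drives the lymph node homing gene Ccr7 and the quiescence gene Klf2. Tcf7 encodes TCF-1, a transcription factor of naive, memory and stem-like T cells. In cells with Il7r and no Tcf7 UMI, one of these markers was thus detected without the other. Butyrate is a short-chain fatty acid of bacterial origin that enters metabolism and inhibits histone deacetylases.

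The control libraries held 153 and 182 Il7r-high cells and 917 and 1271 Il7r-negative cells in replicates 1 and 2. The butyrate libraries held 396 and 408 Il7r-high cells and 1063 Il7r-negative cells each. The median Il7r-high cell had 4 Il7r UMIs in every library, and the highest cell had 17, 26, 17 and 20 in control replicates 1 and 2 and butyrate replicates 1 and 2. Just outside the limit, with 2 Il7r UMIs and no Tcf7 UMI, lay 122, 139, 279 and 294 cells in the same order, and just inside, with 3 or 4, lay 101, 118, 245 and 267. The limit therefore cut a continuous distribution and marks a range of counts, not a separate population. A CD3 UMI was found in 100% of the Il7r-high cells, and a CD8 UMI in 96.1%, 95.6%, 98.5% and 97.1%, the markers of the sorted population. Libraries totalled 64388093 to 76522004 UMIs, and at most 5 cell barcodes were shared by any pair of libraries.

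**Figure D1:**
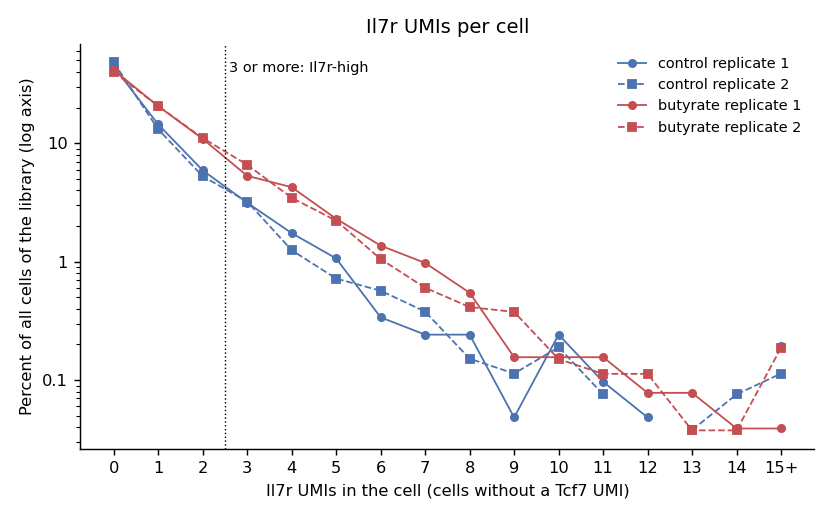
Il7r UMIs per cell among cells without a Tcf7 UMI (x axis, 15 or more pooled) against the percent of all cells of the library (y axis, log scale), 1 line per library, with counts of 0 cells not drawn. The 4 lines fall across the limit at 3 UMIs without a gap, and both butyrate lines lie above both control lines from 1 to 8 UMIs.

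A fixed number of UMIs is easier to reach in a deeply sequenced cell, and depth differed. The median Il7r-high cell had 21751 and 21915 UMIs in control against 23602 and 22235 in Il7r-negative cells. In butyrate it had 29446 and 26936 UMIs against 22753 and 21616. Butyrate members were thus deeper than their comparison cells and control members were not. Cells above 2 times the median UMIs of their library, among which doublets would fall, made up 16.3% and 17.0% of Il7r-high against 10.4% and 10.7% of Il7r-negative cells in control, and 9.34% and 11.5% against 3.86% and 4.33% in butyrate. Results are therefore given beside fits in which every cell was thinned at random to 6500 UMIs, in which the classes themselves were redrawn on thinned counts (2 or more Il7r UMIs and no Tcf7 UMI against none of either), in which large cells were left out, or in which Il7r-negative cells were sampled to the depth of the Il7r-high cells, wherever these ended or turned a call.

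The share of Il7r-high cells without Tcf7 was 7.41% and 6.90% of all cells in the control libraries and 15.5% and 15.4% in the butyrate libraries. Both butyrate values lay above both control values, with means of 7.15% ± 0.361 and 15.4% ± 0.0757 (SD, n = 2 each) and a difference of 8.26 percentage points. An exact two-sided permutation test over the 4 libraries gave p = 0.3333, the smallest this design allows. With classes redrawn on thinned counts the shares were 5.76% and 5.65% against 6.17% and 6.44%, a difference of 0.597 points. This setting lowers the depth and the Il7r limit and also redraws Tcf7 detection, so their parts cannot be told apart. A cell that loses its Tcf7 UMIs on thinning can become a member. Within cells of 3 or more Il7r UMIs, Tcf7 was found in 54.1% and 53.8% in control and in 11.8% and 16.9% in butyrate. Among cells with no Il7r UMI, Tcf7 was found in 17.5% and 17.0% and in 10.6% and 11.3%. In control, Il7r-high cells thus divided about evenly by detection of Tcf7, and in butyrate most had no Tcf7 UMI. The Tcf7 count was low where it was found: 672 and 796 UMIs in 180 and 212 control cells. In butyrate it was 91 and 177 UMIs in 53 and 83 cells. A cell with 0 Tcf7 UMIs may therefore hold the transcript, and how many members do so was not tested.

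Class comparisons used UMIs summed per library and class, with edgeR's quasi-likelihood test on 12178 genes and library as a term, and a gene was called at an adjusted p (Benjamini-Hochberg over all genes tested) under 0.05. Levels are CPM, UMI counts of a gene scaled to a common library total and between sums by TMM, folds are log2, and ± gives the standard error (SE) of a fold. The 2 classes of a library are cells of one culture, so these p-values rest on 2 cultures per condition.

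In control, Il7r-high cells carried more RNA of lymph node homing, quiescence and interferon-response genes than Il7r-negative cells of the same culture, and less of DNA replication, cholesterol synthesis and protein-folding genes. Of 12178 genes, 1381 (11.3%) were higher and 1403 (11.5%) were lower. DESeq2 called 580 and 404, a mitochondrial limit of 5% left 787 and 699, and without control replicate 2 the counts were 717 and 841. Among 24 FOXO1 targets and quiescence genes, 20 were higher and none was lower, with a median fold of 0.70 where the median of all genes was 0.00. Of 25 memory and stem-like genes 17 were higher and 2 lower (median 0.55), and of 24 homing and adhesion genes 14 were higher and none lower (median 0.35). These lists were chosen with earlier results of these data known, so their counts are a description.

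Ccr7 (chromosome 11, 99144196 to 99155077), the chemokine receptor that leads T cells into lymph nodes, stood at 15.4 and 19.1 CPM in Il7r-high cells of control replicates 1 and 2 against 4.53 and 3.69 CPM in Il7r-negative cells. The classes did not overlap, and the fold was 2.10 ± 0.17 (edgeR adjusted p = 2.79e-13). A Ccr7 UMI was found in 19.6% (95% exact binomial interval 13.6 to 26.8%) and 22.5% (16.7 to 29.3%) of Il7r-high cells against 7.85% and 6.69% of Il7r-negative cells. S1pr1, the receptor for lymphoid organ exit, was higher by 0.93 ± 0.16 and Klf2, a regulator of T cell circulation, by 0.62 ± 0.12. So these 3 genes of the FOXO1 circulation program rose together, though none was abundant.

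Among genes that restrain growth, Mxd4, a transcriptional antagonist of MYC, was at 41.4 and 50.9 CPM against 12.5 and 14.5 CPM (fold 1.78 ± 0.10). Ypel3 reached 71.3 and 81.6 CPM against 30.9 and 27.9 CPM, and the antiproliferative gene Btg1 118.9 and 121.2 CPM against 63.2 and 58.2 CPM. Cdkn1b, which encodes the cell cycle inhibitor p27, was at 89.5 and 78.3 CPM against 53.3 and 44.3 CPM (fold 0.78 ± 0.07). All 4 had separate classes in both libraries and were called in each alternative fit. Cdkn1a, encoding the inhibitor p21, was not called (48.1 and 71.3 against 56.7 and 57.9 CPM, adjusted p = 0.704).

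Other memory-associated genes were also higher. Cd27, a costimulatory receptor, was at 65.8 and 63.5 CPM against 39.7 and 38.2 CPM (fold 0.73 ± 0.07), Ltb, a TNF family cytokine, was higher by 0.69 ± 0.04, Satb1, a chromatin organiser of T cells, by 0.73 ± 0.05 and Cd28 by 0.71 ± 0.05. Cd44 (0.43 ± 0.09) and Foxo1 itself (0.41 ± 0.08) rose slightly. Id3, a transcription regulator of memory precursors, stood at 11.96 and 13.4 CPM against 8.45 and 9.91 CPM, and its call (adjusted p = 0.0209) was lost in 8 of 14 alternatives. Bcl2, the survival gene downstream of IL-7, was not higher: its level was 328.2 and 312.5 CPM against 372.0 and 325.3 CPM, a fold of -0.12 ± 0.04 that was called (adjusted p = 0.0203) but lost in 9 of 14 alternatives. Bcl2l1, encoding the survival protein BCL-XL, was at 12.2 and 16.4 CPM against 24.1 and 23.5 CPM, a fold of -0.72 ± 0.13. The BCL2 family as a whole was divided. Of 15 tested members 5 were higher, among them Bcl2a1d, Bcl2a1b and Bbc3, and 3 were lower, Bcl2 and Bcl2l1 included.

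Receptors of the same cytokine family and their signalling genes were higher in part. Of 21 genes of common gamma chain receptors and JAK-STAT signalling 11 were higher and none lower, where 11.3% of all genes were higher. Among them were the shared chain Il2rg (0.32 ± 0.05) and Stat4, the transducer of IL-12 signals (0.76 ± 0.07). Il2rb, the IL-2 receptor beta chain, was at 322.4 and 386.0 CPM against 363.4 and 366.9 CPM, and Il2ra, the alpha chain, at 125.6 and 163.7 CPM against 132.1 and 131.8 CPM. Neither was called (adjusted p = 0.548 and 0.181). Il2ra turned lower when large cells were left out (fold -0.28, adjusted p = 0.000212) and was called higher at 5 or more Il7r UMIs (0.55). Of 21 STAT5 targets 4 were higher and 5 lower, so this list showed no common direction.

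Among interferon-response genes 20 of 31 tested (of 40 listed) were higher and none lower, with a median fold of 0.64. Ifi27l2a was at 160.3 and 243.2 CPM in Il7r-high against 67.3 and 91.5 CPM in Il7r-negative cells (fold 1.34 ± 0.05, adjusted p = 7.05e-25). Ifi209, of the PYHIN family of nucleic acid sensors, was at 77.5 and 68.6 CPM against 26.8 and 28.5 CPM, Ifi203 at 60.5 and 58.5 CPM against 25.3 and 25.6 CPM, and Slfn1, a growth-regulating interferon target, at 32.4 and 34.7 CPM against 12.7 and 13.9 CPM. PYHIN and Slfn genes have close paralogs whose reads may be assigned to the wrong member, so single-gene values in these families are uncertain. No interferon is named among the additions in the labels.

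Interferon-activated factors (ISGF3 and IRFs) bind a repeated GAAA sequence, and a few promoters that hold it are printed because these genes moved together. The motif GAAA, any 2 bases (NN), GAAA was searched on both strands in the 250 bases before the first listed start of each gene (RefSeq, GRCm38.p6). Of the 20 interferon-list genes higher in control, 15 had a promoter sequence and 8 of these (53.3%) held the motif, as did 978 of 32851 promoters (2.98%) and 16 of 30 matched genes of the whole list. The following stretches are written 5′ to 3′ on the strand of the gene, with the motif (or its reverse complement, TTTC, NN, TTTC) in capitals; in Isg15 the capitals span 3 overlapping matches.
Isg15 (chr4:156200855-156200916, minus strand): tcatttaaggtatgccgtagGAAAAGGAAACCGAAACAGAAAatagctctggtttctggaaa
Oas3 (chr5:120777705-120777754, minus strand): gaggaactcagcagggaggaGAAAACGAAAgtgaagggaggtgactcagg
Gbp2 (chr3:142620584-142620633, plus strand): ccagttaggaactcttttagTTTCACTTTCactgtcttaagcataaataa
Ifi213 (chr1:173599316-173599365, minus strand): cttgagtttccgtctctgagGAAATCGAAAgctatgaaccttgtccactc
Ifi208 (chr1:173673587-173673636, plus strand): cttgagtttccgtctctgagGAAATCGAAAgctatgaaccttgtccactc
The Ifi213 and Ifi208 stretches are identical letter for letter, and both genes lie in the PYHIN cluster. In control the folds of these 5 genes were 0.58 for Isg15, a ubiquitin-like protein, 0.64 for Oas3, an RNA sensor, 1.22 for Gbp2, a guanylate-binding GTPase, 2.04 for Ifi213 and 1.18 for Ifi208. In butyrate they were -0.48, -0.03, 0.71, 0.25 and 0.12, so the same motif accompanied different folds. A match describes the letters and was not tested as a binding site.

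Surface and effector genes divided. Klrd1, which encodes the NK receptor chain CD94, was at 322.7 and 322.1 CPM against 148.3 and 152.8 CPM (fold 1.10 ± 0.04, adjusted p = 1.34e-25). Ctla4, an inhibitory receptor induced by activation, was at 77.3 and 72.9 CPM against 41.3 and 37.9 CPM, and Icos and Tnfrsf4, both costimulatory receptors of activated cells, were higher by 0.60 ± 0.07 and 0.75 ± 0.14. Eomes, a transcription factor of effector and memory CD8+ T cells, was lower: 39.1 and 39.8 CPM against 62.1 and 73.9 CPM (fold -0.79 ± 0.09, adjusted p = 3.04e-09). Fcer1g, a signalling adaptor shared with NK and myeloid cells, stood at 16.8 and 39.0 CPM against 46.5 and 73.9 CPM (fold -1.10 ± 0.10), and the related adaptor Tyrobp at 1.15 and 1.17 CPM against 3.64 and 2.85 CPM. The Fcer1g call was lost without library as a term, and the Tyrobp call in 4 of 14 alternatives. Gzmb, encoding granzyme B, was at 2866 and 2626 CPM against 3122 and 3283 CPM and was not called (fold -0.22 ± 0.06, adjusted p = 0.113), although 12 of 14 alternatives called it lower, with folds down to -0.92 for redrawn classes. Prf1, encoding perforin, was at 24.6 and 29.8 CPM against 34.4 and 35.2 CPM (fold -0.34 ± 0.08, adjusted p = 0.00182), a call lost in 4 of 14 alternatives. Tbx21, a regulator of effector cells, was even (0.02 ± 0.13). Id2, another such regulator, had a fold of -0.09 ± 0.03 whose call (adjusted p = 0.0414) was lost in 8 of 14 alternatives, and Klrg1, a marker of terminal effectors, was under 1 CPM in each class.

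Cell cycle genes separated by phase. Of 42 S phase genes 29 were lower and none higher (median -0.25): Pcna, the replication clamp, was at 232.3 and 197.2 CPM against 280.3 and 265.6 CPM, and Mcm5, a replicative helicase subunit, at 113.4 and 101.9 CPM against 140.8 and 140.7 CPM. Ccne1, the cyclin that starts replication, was lower by 0.52 ± 0.08 on the log2 scale (32.9 and 34.3 against 47.7 and 48.9 CPM). Of 51 G2M genes 24 were higher and 2 lower, with Nusap1 (0.44 ± 0.04), Cenpf (0.40 ± 0.04) and Ube2c (0.37 ± 0.03), all of mitosis, as examples. This second direction did not last: 4 were higher and 3 lower with each cell thinned, and 2 higher and 21 lower with classes redrawn on thinned counts, where Ube2c had a fold of -0.25. The S phase count was 0 higher and 32 lower with redrawn classes. An Mki67 or Top2a UMI was found in 73.9% and 71.4% of thinned Il7r-high cells against 90.8% and 88.6% of Il7r-negative cells, while the summed level of Mki67 itself was not called (-0.08 ± 0.03, adjusted p = 0.081) and was called lower with each cell thinned (-0.28).

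**Figure D2:**
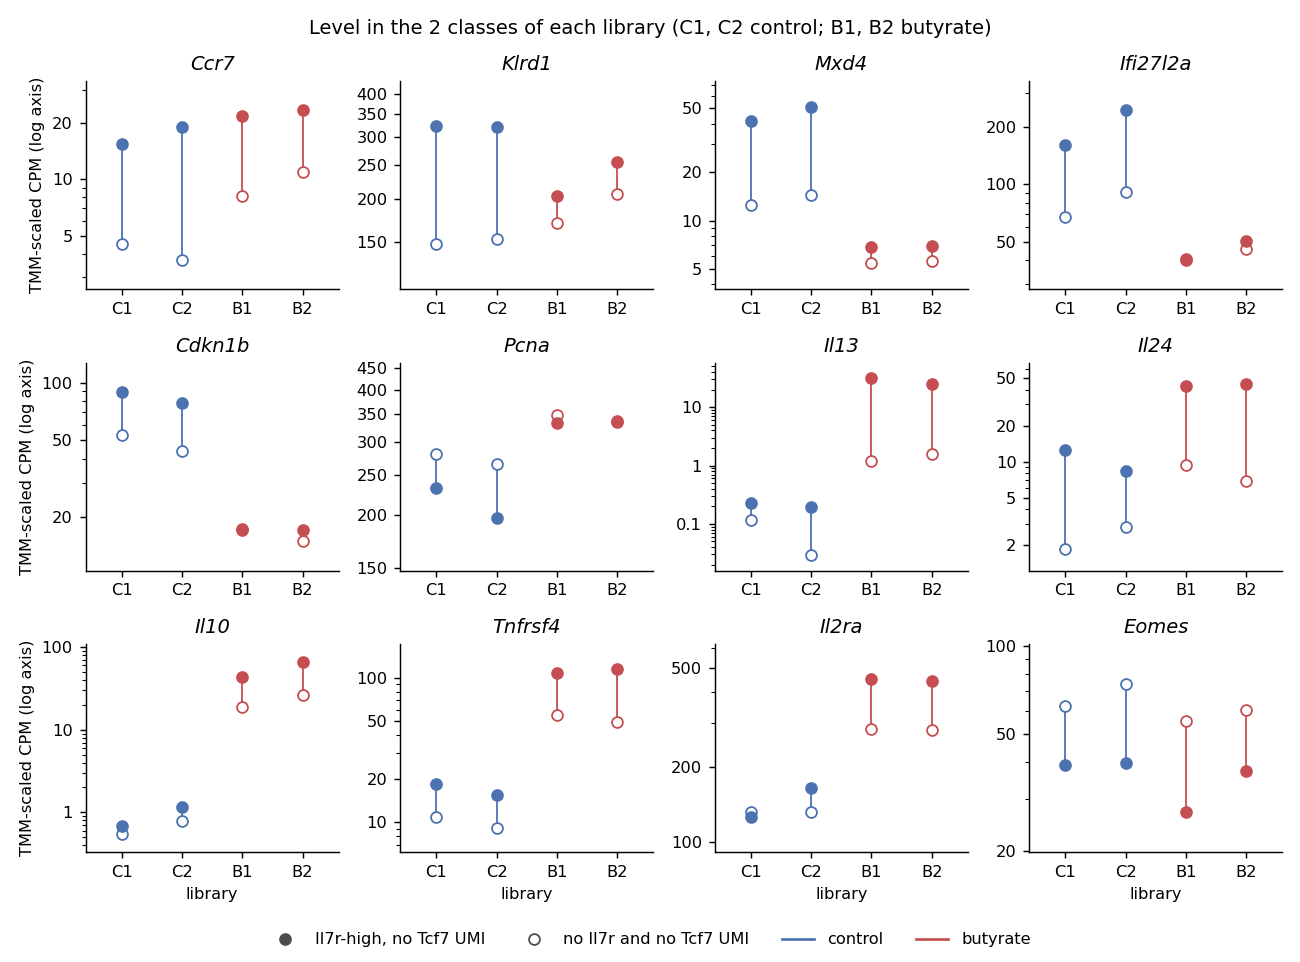
TMM-scaled CPM (y axis, log scale) of 12 genes in the Il7r-high (filled) and Il7r-negative (open) cells of each library, with a line joining the classes of a library; control replicates are C1 and C2 and butyrate replicates B1 and B2. Ccr7 and Eomes separate the classes in all 4 libraries, Mxd4, Ifi27l2a and Cdkn1b mainly in control, and Il13, Il10 and Il2ra mainly in butyrate; Il24 in C1 rests on 1 cell.

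Biosynthetic genes were lower in control Il7r-high cells. Of 23 cholesterol synthesis genes 13 were lower and none higher (median -0.23), and of 23 heat shock and unfolded protein genes 15 were lower and none higher (median -0.21). Slc7a5, the large amino acid transporter, was at 60.3 and 66.6 CPM against 111.4 and 108.7 CPM (fold -0.79 ± 0.06, adjusted p = 1.26e-13). Atf4, the transcription factor of the amino acid response, fell by 0.50 ± 0.05 on the log2 scale (143.3 and 174.6 against 221.1 and 230.4 CPM) and Hsp90aa1, a chaperone, by 0.43 ± 0.03. Of 53 nuclear respiratory chain genes 21 were lower and 3 higher, while 43 of 80 cytosolic ribosomal protein genes were higher and 10 lower.

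In butyrate, Il7r-high cells carried more RNA of the cytokines Il13, Il24 and Il10 and of the receptors Tnfrsf4, Tnfrsf8, Ctla4 and Icos than Il7r-negative cells, and less of Eomes and Fcer1g. Of 12178 genes 679 (5.58%) were higher and 489 (4.02%) lower. DESeq2 called 131 and 32, each cell thinned gave 284 and 133, and leaving out butyrate replicate 1 or 2 gave 291 and 116 or 239 and 87. Without library as a term 383 and 145 were called. Of the 24 FOXO1 targets and quiescence genes 7 were higher and none lower (median 0.10), of the 25 memory genes 6 were higher and 2 lower (median 0.11), of the 24 homing genes 10 were higher and 2 lower (median 0.25), and of 31 interferon-response genes 7 were higher and 2 lower (median 0.07). Of 12 TNF receptor and CD28 family costimulators 5 were higher and none lower in butyrate (median 0.28), and 5 were higher and 1 lower in control (median 0.65).

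Among single genes, Il13 (chromosome 11, 53631324 to 53634702), a type 2 cytokine, was at 31.5 and 25.5 CPM in Il7r-high cells of butyrate replicates 1 and 2 against 1.21 and 1.57 CPM in Il7r-negative cells (fold 4.36 ± 0.16, adjusted p = 8.7e-26). It came from few cells: 38 of 396 and 33 of 408 Il7r-high cells had an Il13 UMI, against 22 and 20 of 1063 Il7r-negative cells, and 1 cell held 25.1% and 21.4% of the Il7r-high UMIs. Without that cell the unscaled levels were 21.9 and 18.4 CPM, still above the 1.12 and 1.46 CPM of all Il7r-negative cells. With classes redrawn on thinned counts the fold was 2.14 and not called (adjusted p = 0.242). In control, 1 Il7r-high cell per library had an Il13 UMI.

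Il24 (chromosome 1, 130882074 to 130887454), an IL-10 family cytokine, was at 42.4 and 44.1 CPM against 9.42 and 6.85 CPM (fold 2.41 ± 0.13, adjusted p = 1.96e-08), with a UMI in 71 and 66 Il7r-high cells. Its control fold of 2.09 rested in replicate 1 on 1 cell that held 47 of the 54 Il24 UMIs: without it the unscaled level was 1.72 CPM against 2.01 CPM in Il7r-negative cells. In control replicate 2 it was 9.01 against 3.08 CPM. Il10 (chromosome 1, 131019845 to 131024974), the anti-inflammatory cytokine, was at 43.0 and 65.6 CPM against 18.9 and 26.3 CPM (fold 1.26 ± 0.07, adjusted p = 2.03e-18), with a UMI in 84 and 95 Il7r-high cells and in 117 and 143 Il7r-negative cells. Its call was lost without library as a term. Of the 38 and 33 Il7r-high cells with Il13, 15 and 16 also had Il24, 15 and 18 had Il10, and 6 and 11 had Il4, so the cytokine transcripts met in part in the same cells. These cells had median depths of 34255 and 26294 UMIs against 29446 and 26936 UMIs for all Il7r-high cells of their library.

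Receptors of activated cells followed. Tnfrsf4, encoding OX40, was at 107.2 and 115.6 CPM against 55.3 and 49.3 CPM (fold 1.09 ± 0.06), Tnfrsf8, encoding CD30, at 53.3 and 59.7 CPM against 26.5 and 28.4 CPM (1.04 ± 0.07), Ctla4 at 115.1 and 144.8 CPM against 63.0 and 74.98 CPM (0.91 ± 0.05) and Icos at 169.7 and 196.3 CPM against 92.4 and 105.9 CPM (0.88 ± 0.04). Il2ra was at 448.8 and 443.4 CPM against 284.6 and 280.5 CPM (0.66 ± 0.05, adjusted p = 4.88e-07), and Il2rb was even (0.00 ± 0.04). The classes did not overlap for any of the first 5. The transcription factors Batf3 (72.4 and 80.2 against 24.5 and 33.2 CPM, 1.41 ± 0.13), Irf4 (48.1 and 49.9 against 32.3 and 30.5 CPM, 0.64 ± 0.07) and Gata3, the regulator of type 2 cytokines (32.1 and 34.1 against 24.9 and 24.0 CPM, 0.44 ± 0.08), were higher too. The Batf3 call was lost without library as a term, and the Gata3 call with DESeq2 and with thinned cells. Tnfrsf8 also stood higher in Il7r-high cells of control, at unscaled levels of 9.09 and 13.8 against 4.27 and 4.22 CPM. In control replicate 1, 1 cell held 32.4% of its Il7r-high UMIs.

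The homing receptor was higher in butyrate also. Ccr7 was at 21.7 and 23.5 CPM against 8.10 and 10.9 CPM (fold 1.26 ± 0.11, adjusted p = 5.6e-12). Klf2 (-0.01 ± 0.08), S1pr1 (0.34 ± 0.13), Cd27 (0.17 ± 0.08), Foxo1 (-0.12 ± 0.05), Id3 (0.28 ± 0.11), Bcl2 (-0.06 ± 0.04) and Bcl2l1 (-0.02 ± 0.09) were not called. Of 15 tested BCL2 family genes Bcl2a1d and Bcl2a1b were higher in butyrate and none was lower. Klf2 and Foxo1 turned to called increases of 0.46 and 0.23 with classes redrawn on thinned counts. Ypel3 (-0.01 ± 0.07), Cdkn1b (0.09 ± 0.09), Ifi27l2a (0.07 ± 0.06) and Ltb (0.04 ± 0.04) were not called, and Btg1 rose by 0.22 ± 0.04.

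Genes that CD8+ T cells share with NK cells moved in both directions in butyrate. Klrk1 (0.53 ± 0.06), Klrc1 (0.52 ± 0.13) and Klrd1 (0.28 ± 0.04), which encode NK receptor chains, and the integrin Itga2 (0.82 ± 0.23) were higher. Lower were others: Klrb1c, encoding NK1.1, was at 7.46 and 12.3 CPM against 19.9 and 23.8 CPM (fold -1.15 ± 0.11), Fcer1g at 35.1 and 40.5 CPM against 62.3 and 80.2 CPM (-0.91 ± 0.07), Tyrobp at 25.8 and 34.2 CPM against 46.1 and 50.7 CPM (-0.70 ± 0.07) and Cd160, an inhibitory receptor, at 79.4 and 69.6 CPM against 96.9 and 95.5 CPM (-0.37 ± 0.05). The Klrb1c, Fcer1g and Klrd1 calls were lost without library as a term. Eomes was at 27.0 and 37.4 CPM against 55.4 and 60.1 CPM (-0.85 ± 0.07). Egr1, an immediate early gene of receptor signalling, was at 68.1 and 70.1 CPM against 104.8 and 119.0 CPM (-0.69 ± 0.05) and the chemokine Ccl4 at 88.0 and 102.9 CPM against 130.9 and 140.0 CPM (-0.51 ± 0.05). With classes redrawn on thinned counts Egr1 was near even (0.029) and Ccl4 was higher (0.41). The Egr1 call was also lost without library as a term, as were those of Prf1, Ube2c and Mki67 given next. Gzmb was at 11630 CPM in both libraries against 10070 and 9822 CPM and not called (fold 0.23 ± 0.06, adjusted p = 0.17). It was called higher in 11 of 14 alternatives and lower (-0.17) with redrawn classes. Prf1 was higher by 0.17 ± 0.03, a call that turned to -0.18 with redrawn classes. Of 51 G2M genes 15 were lower and none higher, with Ube2c at -0.17 ± 0.03 and Mki67 at -0.11 ± 0.03, and 38 were lower with redrawn classes. Of 42 S phase genes 3 were lower and 1 higher.

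**Figure D3:**
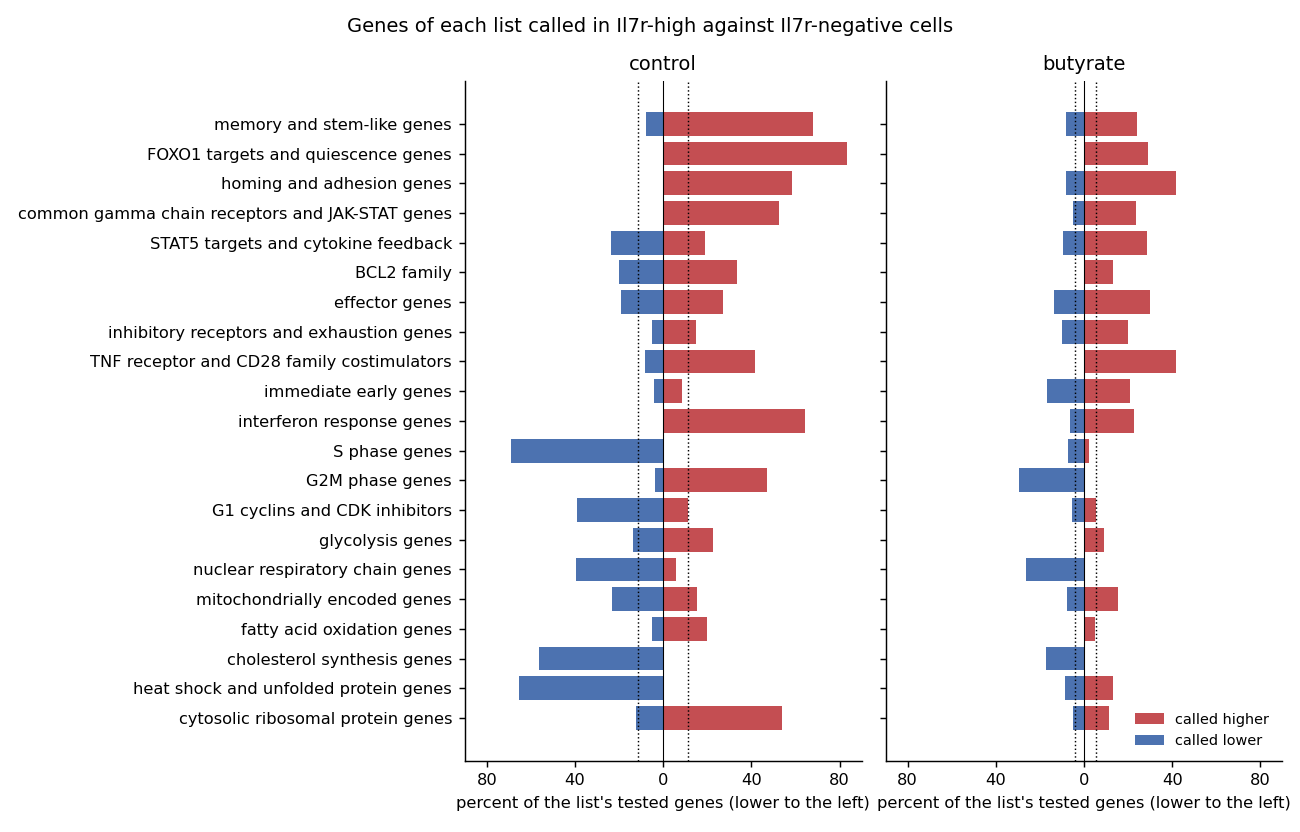
Percent of the tested genes of each list called higher (red, to the right) or lower (blue, to the left) in Il7r-high against Il7r-negative cells, in control and in butyrate; dotted lines mark the percent of all genes called in that direction. FOXO1 targets reach 20 of 24 genes higher in control and 7 of 24 in butyrate, and G2M genes lie to the right in control and to the left in butyrate.

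Genes that separated the classes in the same direction in both conditions numbered 330 higher (23.9% of the control and 48.6% of the butyrate calls) and 233 lower (16.6% and 47.7%). Of all 12178 genes, 11.3% and 5.58% were higher in control and butyrate, and 11.5% and 4.02% lower. Of the shared genes, 81 of the 330 and 33 of the 233 had a called difference between conditions. A further 32 genes were higher in control and lower in butyrate, and 22 the reverse, each with a called difference. Among the same-direction genes Ctla4 (0.92 and 0.91), Eomes (-0.79 and -0.85), Fcer1g (-1.10 and -0.91), Cd8b1, the CD8 beta chain (0.54 and 0.43), and Cd44 (0.43 and 0.33) had folds in control and butyrate whose difference was not called. Cd8b1 did not stand for its list. Of 14 CD8 T cell markers 7 were higher and 1 lower in control, and 3 higher and 3 lower in butyrate. The difference was called more negative for 6 of the 14 and more positive for 1. For Ctla4 the difference was -0.01 ± 0.08 and for Eomes -0.06 ± 0.12. The conditions share their mice but no library.

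The difference between the class effects of butyrate and control was tested directly. In butyrate the effect was more positive for 629 of 12178 genes (5.17%) and more negative for 674 (5.53%). DESeq2 called 98 and 155, a mitochondrial limit of 5% left 207 and 322, large cells left out gave 1228 and 1092, without control replicate 2 the counts were 491 and 380, and without butyrate replicate 1 or 2 they were 306 and 377 or 370 and 386. More negative were 16 of 24 FOXO1 targets and quiescence genes, 13 of 25 memory genes, 15 of 31 interferon-response genes and 25 of 51 G2M genes, with 0, 0, 0 and 1 more positive. More positive were 16 of 42 S phase and 11 of 23 heat shock and unfolded protein genes, with none more negative. The differences were -1.41 ± 0.11 for Ypel3, -1.28 ± 0.08 for Ifi27l2a, -0.82 ± 0.05 for Klrd1, -0.69 ± 0.12 for Cdkn1b, -0.65 ± 0.05 for Ltb, -0.63 ± 0.14 for Klf2 and -0.56 ± 0.11 for Cd27. On the positive side they were 0.76 ± 0.08 for Slc7a5, 0.52 ± 0.08 for Il2ra, 0.51 ± 0.09 for Prf1 and 0.33 ± 0.06 for Pcna. The homing, quiescence and interferon genes thus set the Il7r-high cells apart more in control, and Il2ra more in butyrate. For Ccr7 the difference of -0.84 ± 0.19 was lost in 3 of 13 alternatives, namely without control replicate 2, without butyrate replicate 2 and with Il7r-negative cells of equal depth. The Ifi27l2a and Klrd1 differences were lost without library as a term, that of Il2ra with DESeq2 and at 5 or more Il7r UMIs. The Cd27 difference was lost with DESeq2 and thinned cells, that of Klf2 with DESeq2, at equal depth and without library as a term, and that of Prf1 in 4 of 14 alternatives. At equal depth 8 interferon-response genes were more negative and 1 more positive, and with thinned cells 5 G2M genes were more negative. For Il13 (2.83 ± 1.28, adjusted p = 0.171), Tnfrsf4 (0.34 ± 0.15, adjusted p = 0.152) and Gzmb (0.45 ± 0.08, adjusted p = 0.0915) it was not called, although 12 of 14 alternatives called the Gzmb difference.

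**Figure D4:**
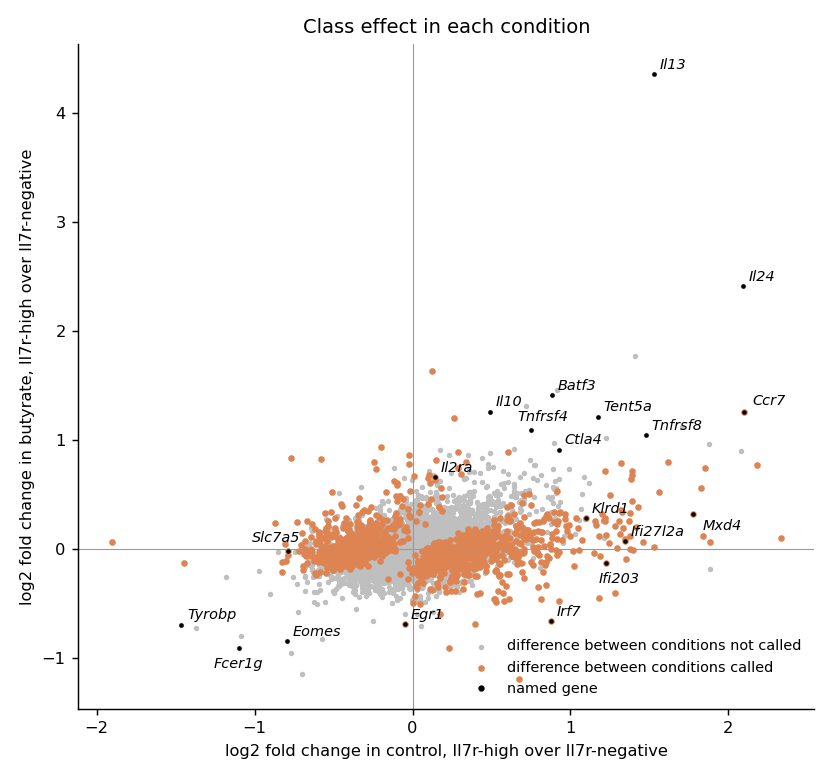
Log2 fold of Il7r-high over Il7r-negative cells in control (x axis) against butyrate (y axis) for the 8482 genes that average 5 CPM or more; named genes are black and orange genes had a called difference between conditions. Mxd4, Ifi27l2a and Ifi203 lie to the right near or below the middle line, Il13 and Il24 at the top, and Eomes, Fcer1g and Tyrobp at the lower left.

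Levels along the count of Il7r UMIs were read in bins of 0, 1, 2, 3 to 4, 5 to 7 and 8 or more UMIs, in unscaled CPM and as a description. The highest bin held 18, 20, 32 and 38 cells. Ccr7 went from 4.03 CPM at 0 to 32.3 CPM at 8 or more in control replicate 2, and from 10.1 to 31.1 CPM in butyrate replicate 2. It went from 4.9 to 35.4 CPM in control replicate 1 and from 7.52 to 20.6 CPM in butyrate replicate 1. The rise was uneven in control replicate 1, with 21.6 CPM at 2 UMIs and 12.3 CPM at 3 to 4. Tnfrsf4 went from 51.4 to 127.5 CPM and from 45.9 to 198.0 CPM in the butyrate replicates, and Il24 from 8.75 to 136.7 CPM and from 6.38 to 160.2 CPM. Eomes went from 67.1 to 16.9 CPM in control replicate 1 and from 51.5 to 11.5 CPM in butyrate replicate 1. In control replicate 2 it went from 80.6 to 43.7 CPM, after 31.7 CPM at 5 to 7 UMIs. In butyrate replicate 2 it went from 56.0 to 18.25 CPM. Mxd4 peaked at 5 to 7 UMIs in control, at 56.7 and 71.6 CPM, and stayed between 3.82 and 7.26 CPM in every butyrate bin. The change was already under way at 1 and 2 Il7r UMIs, where Mxd4 stood at 25.3 and 26.6 CPM in control replicate 1 against 13.5 CPM at 0. The median depth of a cell also went up with the bin in butyrate, from 22753 to 36331 UMIs and from 21616 to 34879 UMIs.

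**Figure D5:**
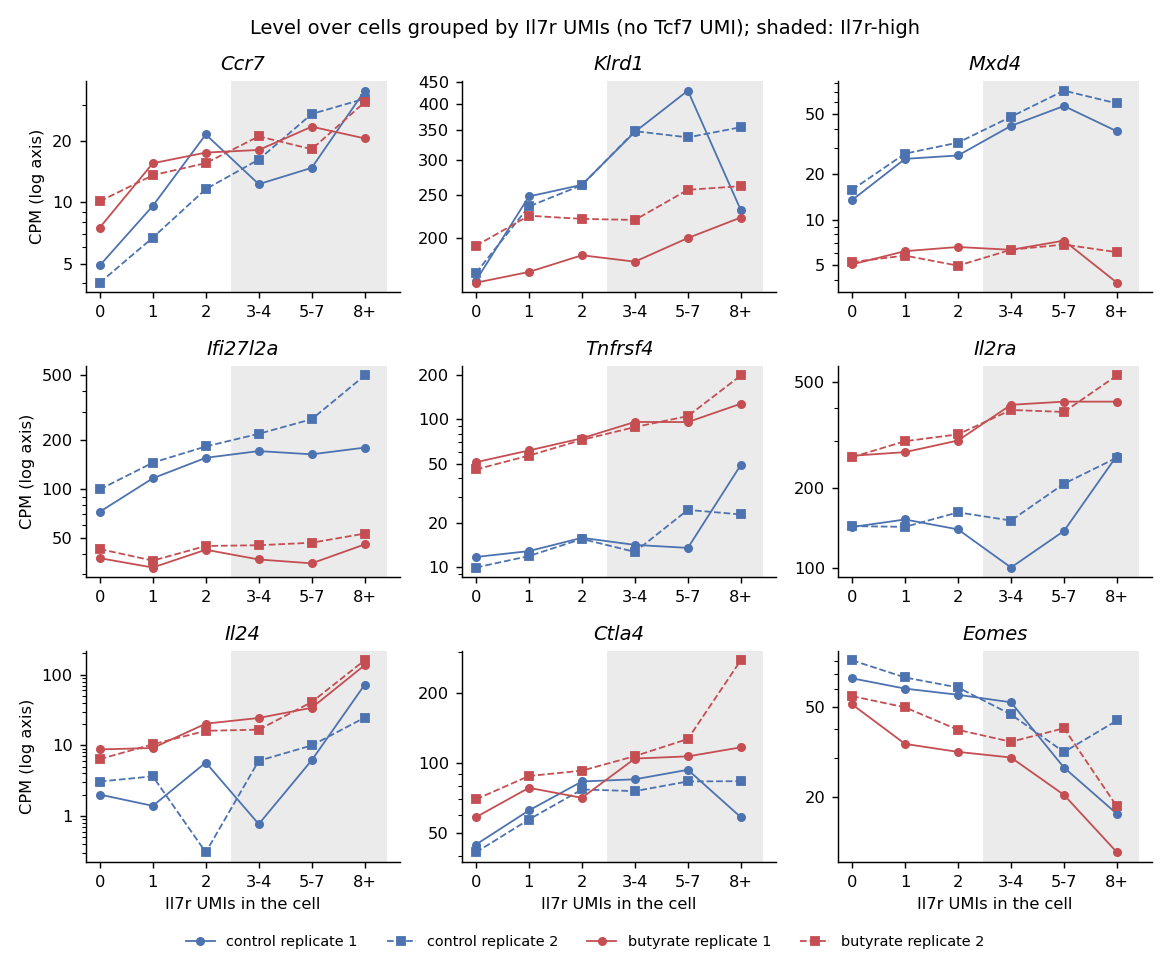
CPM (y axis, log scale) of 9 genes over cells without a Tcf7 UMI grouped by their Il7r UMIs (x axis), 1 line per library, with the Il7r-high bins shaded. Ccr7 and Tnfrsf4 end higher and Eomes lower at 8 or more UMIs than at 0 in all 4 lines, and Mxd4 and Ifi27l2a end higher in the control lines and stay near their start in the butyrate lines.

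Markers of other cell types that a sorted spleen culture could hold were summed over each whole list, in unscaled CPM. For 12 B cell markers the sum was 145 and 144 CPM in Il7r-high against 119 and 126 CPM in Il7r-negative cells of control. In butyrate it was 68.1 and 62.5 against 54.4 and 54.5 CPM. Ighm made up 53.3 to 90.2% of these sums. Without Ighm they were 14.3 and 16.6 against 13.2 and 13.1 CPM in control and 26.1 and 29.2 against 20.6 and 19.7 CPM in butyrate. Cd79b and Ighm were called higher in control and Cd74 and Fcmr in butyrate, and none lower. Cd79a had 0 UMIs in Il7r-high and 2 in Il7r-negative cells of each control library. The 15 myeloid markers summed to 23.8 to 56.7 CPM in Il7r-high against 53.0 to 92.3 CPM in Il7r-negative cells, of which Fcer1g made up most. Without Fcer1g the sums were 5.90 and 9.85 against 2.85 and 4.38 CPM in control and 17.4 and 19.4 against 14.5 and 17.6 CPM in butyrate, and Fcgr3 and Cd68 were called higher in control. The 13 dendritic cell markers summed to 68.3 to 122 CPM against 44.4 to 77.9 CPM. The 9 NK markers were at 13.8 and 19.7 against 14.9 and 19.0 CPM in control and at 40.9 and 57.4 against 72.7 and 86.7 CPM in butyrate, which is the direction of Klrb1c and Tyrobp, both on that list. The 12 CD4 and regulatory T cell markers, which include Ctla4, Tnfrsf4, Il13, Il2ra and Gata3, were at 360 and 394 against 273 and 269 CPM and at 711 and 739 against 424 and 428 CPM. Of 9 tested, 4 were called higher in control and 7 in butyrate, and none lower. Ikzf2, Ctla4, Tnfrsf4 and Gata3 were called higher in both conditions. In control and butyrate replicates 1 and 2, Cd4 was found in 0, 0, 4 and 5 Il7r-high and in 2, 0, 11 and 8 Il7r-negative cells. Foxp3 was found in 0, 0, 1 and 2 and in 0, 1, 1 and 2. Zbtb7b, also on the list, had 29, 34, 103 and 79 UMIs in Il7r-high cells. It had 180, 247, 277 and 227 UMIs in Il7r-negative cells, which are larger sums. The gamma-delta list was at 243 and 246 against 197 and 189 CPM and at 152 and 145 against 109 and 113 CPM, and 4 of 6 tested genes in control and 5 of 6 in butyrate were higher, among them Trdc and Tcrg-C1. Innate lymphoid markers were at 587 and 629 against 634 and 626 CPM and at 806 and 873 against 793 and 887 CPM. Id2 made up 87.5 to 95.4% of these sums. Without Id2 they were higher in Il7r-high cells, at 73.25 and 65.4 against 47.5 and 49.8 CPM in control. In butyrate they were 76.5 and 71.6 against 39.9 and 41.0 CPM. Rora and Gata3 were called higher and Id2 lower in control, and Il13 and Gata3 were called higher in butyrate. The part that such cells or free RNA had in the class effects was not tested.

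Within the Il7r-high cells, butyrate against control changed far more genes than either class comparison: 2935 of 10956 genes (26.8%) were higher and 2710 (24.7%) lower by edgeR with 2 libraries each. With library totals in place of TMM the counts were 1804 and 4250, as the median of all genes moved by -0.22, and DESeq2 called 1869 and 1510. Perforin (Prf1) went from 24.5 and 29.6 CPM to 704.8 and 767.2 CPM, a fold of 4.76 ± 0.09 (adjusted p = 2.9e-21), and granzyme B (Gzmb) from 2847 and 2607 CPM to 11600 CPM in both (2.09 ± 0.05). Ccl4 went from 0.685 and 1.94 CPM to 87.8 and 102.6 CPM, Gzmk from 2.06 and 3.48 CPM to 65.2 and 66.3 CPM, and Lta, a TNF family cytokine, from 23.1 and 27.1 CPM to 501.0 and 407.2 CPM. Il2ra rose by 1.62 ± 0.09 and Foxo1 by 0.90 ± 0.08. In the other direction, Mxd4 went from 41.1 and 50.5 CPM to 6.84 and 6.96 CPM (-2.74 ± 0.14), Cdkn1b from 88.9 and 77.8 CPM to 17.2 and 17.0 CPM (-2.28 ± 0.10), Ifi203 from 60.1 and 58.0 CPM to 7.88 and 9.67 CPM and Cd27 from 65.3 and 63.1 CPM to 23.0 and 22.9 CPM. Of 34 effector genes 20 were higher and 3 lower, and of 51 G2M genes 1 was higher and 43 lower. Such shifts were not particular to the Il7r-high cells. In Il7r-negative cells, in unscaled CPM, Gzmb went from 3371 and 3580 to 9353 and 9148, and Gzmk from 3.10 and 2.35 to 67.8 and 83.3. Cdkn1b went from 57.6 and 48.3 to 15.9 and 13.9 CPM there, and Cd27 from 42.9 and 41.6 to 18.6 and 19.4 CPM. Il7r-high cells were deeper in butyrate (29446 and 26936 UMIs) than in control (21751 and 21915 UMIs), and with each cell thinned 1672 genes were higher and 1552 lower.

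Against the 528 Il7r-high cells that did have a Tcf7 UMI, of the same libraries, the Il7r-high cells without Tcf7 carried less RNA of interferon-response and memory genes and more of several granzymes and perforin. Of 10347 genes 339 (3.28%) were higher and 384 (3.71%) lower over the 4 libraries. Leaving out 1 library moved these counts to between 86 and 609 higher and between 102 and 639 lower, the lowest without a control replicate and the highest without butyrate replicate 1, and DESeq2 called 109 and 145. Ccr7 was at 15.2, 19.0, 21.9 and 23.5 CPM in control and butyrate replicates 1 and 2, against 72.3, 60.7, 70.1 and 53.1 CPM with Tcf7 (fold -1.67 ± 0.13, adjusted p = 1.72e-06). Id3 was at 11.8, 13.4, 15.2 and 11.4 CPM against 76.6, 59.6, 49.1 and 27.7 CPM (-1.97 ± 0.18), and Ifi27l2a at 158.6, 241.5, 40.7 and 50.8 CPM against 357.4, 529.0, 110.3 and 98.5 CPM (-1.16 ± 0.08). S1pr1 (-1.08 ± 0.13) and Cd27 (-0.86 ± 0.11) were lower as well, while Klf2 (-0.9985 ± 0.39, adjusted p = 0.284) was not called, although 2 of 7 alternatives called it lower. Prf1 was at 24.3, 29.6, 714.1 and 770.4 CPM against 9.03, 9.04, 212.9 and 422.9 CPM (1.34 ± 0.17), and Gzmc, another granzyme, at 638.9, 666.1, 4524 and 4174 CPM against 235.6, 286.6, 1239 and 1602 CPM (1.48 ± 0.09). Havcr2, encoding the inhibitory receptor TIM-3, was higher by 1.03 ± 0.14 and Il2ra by 0.70 ± 0.08. Of 25 memory genes 10 were lower and none higher, of 29 interferon-response genes 18 were lower and 1 higher, and of 34 effector genes 11 were higher and 3 lower. Of 21 homing genes 3 were lower (Ccr7, S1pr1 and Cxcr3) and none higher, with a median fold of 0.00. In all 4 libraries Ccr7 thus ordered the classes, lowest in Il7r-negative cells, then in Il7r-high cells without Tcf7 and highest in Il7r-high cells with Tcf7. The last class was the shallowest in control, with median depths of 15268 and 14847 UMIs.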

How the data were processed

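Single-cell 3′ RNA libraries (10x v3.1) of 4 sorted cultures were analysed. The deposited matrices hold raw UMI counts per gene and barcode (32285 genes, 6794880 barcodes per library, no cell filter). Cell Ranger 4, Seurat 4.3 and mm10 are named per the submitters' processing notes; the sources used here do not give the annotation release or the use of intronic reads. No doublet caller was run. The members and gene lists were chosen with earlier results of these data known.

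UMIs were summed per library and class and tested with edgeR 4.0.16 (R 4.3.3; filterByExpr, TMM, robust quasi-likelihood fit, library as a term; condition alone within Il7r-high cells), after a check on simulated data. Alternatives were DESeq2 1.42.0, library totals, no low-count filter, cells thinned to 6500 UMIs, classes redrawn on thinned counts, a limit of 5 Il7r UMIs, a mitochondrial limit of 5%, large cells left out, Il7r-negative cells sampled to equal depth, no library term, and each library left out. Intervals are exact binomial (95%) and cover counting error only; UMIs and cells of a culture are not independent replicates. The labels tie replicate numbers to mice; the deviations of same-mouse Il7r-high sums correlated at 0.088.

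Genes were named by a rule: the 10 largest called changes in each direction and condition (6 for the difference, 8 elsewhere) with a mean of at least 20 CPM, the 4 list members with the smallest p, and a set of T cell genes always given; the text prints a part of these. Il4, Cd4, Foxp3, Cd79a, Top2a, Klrk1, Klrc1, Fcgr3, Cd68, Cxcr3, Zbtb7b and the printed promoter genes Isg15, Oas3, Ifi213 and Ifi208 fall outside the rule. So do values printed for a comparison other than the one that named the gene. All of these were chosen after their values were seen. Coordinates are from GENCODE M21 (GRCm38), which matched 32158 of the gene IDs. 1 gene named by the rule is not reported here.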

Additional observations from a re-analysis of the deposited data

Results flagged for a closer look

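The effect of class (Il7r-high over Il7r-negative) differed between conditions by edgeR's test of the difference for 28 of 35 genes of the report. Over all 12178 genes, 5.17% had a more positive and 5.53% a more negative effect in butyrate. The 35 genes were named in part for large class effects or differences, so their count describes the choice and is no rate. Values are butyrate minus control on the log2 scale, all with an adjusted p under 0.05. Among homing, memory and quiescence genes they were -0.84 for Ccr7, -0.63 for Klf2, -0.60 for S1pr1, -0.56 for Cd27, -0.54 for Foxo1, -1.41 for Ypel3, -0.77 for Btg1, -0.69 for Cdkn1b and -0.65 for Ltb. The S1pr1 difference was lost in 8 of 13 alternatives. Among interferon-response genes they were -1.36 for Ifi203, -1.28 for Ifi27l2a, -1.15 for Slfn1 and -0.68 for Ifi209. Signalling and surface genes had -0.82 for Klrd1, -0.75 for Stat4, -0.65 for Egr1, 0.52 for Il2ra, 0.51 for Prf1 and 0.28 for Icos, the last lost in 10 of 14 alternatives. Mitotic genes had -0.54 for Ube2c, -0.57 for Nusap1 and -0.37 for Cenpf. Growth genes had 0.76 for Slc7a5, 0.69 for Bcl2l1, 0.54 for Ccne1, 0.43 for Atf4, 0.39 for Hsp90aa1 and 0.33 for Pcna. The median Il7r-high cell was deeper than the median Il7r-negative cell in butyrate and shallower in control, and the part of depth in these differences was not tested beyond the alternatives named in the report.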

How the results depend on the processing

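Counts of called genes moved with the settings, and the cause was not tested beyond what each setting changes by construction (fewer cells or UMIs). In control, 1381 higher and 1403 lower became 580 and 404 with DESeq2, 918 and 835 at 5 or more Il7r UMIs, and 787 and 699 at a mitochondrial limit of 5%; lower genes were 845 with each cell thinned and 2123 with classes redrawn on thinned counts. Leaving out each library gave 717 to 1289 higher and 841 to 1359 lower. In butyrate, 679 higher and 489 lower became 131 and 32 with DESeq2, 284 and 133 with each cell thinned, and 383 and 145 with no replicate block (library not a term); lower genes were 1262 with redrawn classes and 904 at equal depth. Leaving out each library gave 239 to 904 and 87 to 658. For the difference, 629 and 674 became 98 and 155 with DESeq2, 270 and 343 at 5 or more Il7r UMIs, 207 and 322 at the 5% limit, 1228 and 1092 with large cells left out, 327 and 378 with no replicate block, and 333 positive with each cell thinned; leaving out each library gave 306 to 631 and 377 to 599. Within Il7r-high cells, 2935 and 2710 became 1869 and 1510 with DESeq2, 1804 and 4250 with library totals, 1672 and 1552 with each cell thinned and 1810 and 1641 at 5 or more Il7r UMIs, 2408 to 2641 and 2152 to 2350 with each library left out, and 3124 and 2891 with mouse as the replicate block. Against cells with Tcf7, 339 and 384 became 109 and 145 with DESeq2, and 204 higher with library totals and 211 with each cell thinned; leaving out each library gave 86 to 609 and 102 to 639. The difference in share, 8.26 points, was 0.597 with redrawn classes, 3.13 at 5 or more Il7r UMIs, 9.20 at the 5% limit, 8 to 8.51 with each library left out, and 8.05 and 8.46 within each mouse (replicate block).

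Reversed folds came mostly from classes redrawn on thinned counts. In butyrate these were Egr1 0.029, Ccl4 0.41, Klf2 0.46, Foxo1 0.23, Gzmb -0.17, Prf1 -0.18, Ifi203 0.63 and Cenpf -0.64, and in control Bcl2 0.070, Il2ra -0.21 and Ube2c -0.25. Klf2 in butyrate was 0.27 at equal depth, Prf1 in butyrate -0.0155 at 5 or more Il7r UMIs, Id2 in control 0.034 with each cell thinned, and with large cells left out Il2ra and Batf3 in control were -0.28 and -0.30. Without the block (library not a term) the control calls of Batf3, Bcl2, Fcer1g, Id2 and Id3 were lost, the butyrate calls of Batf3, Il10, Fcer1g, Egr1, Klrb1c, Prf1, Ube2c, Mki67, Klrd1 and Il2rg were lost, and so were the differences of Ifi27l2a, Klf2, S1pr1, Klrd1, Icos and Egr1. Of 2359 gene values under an alternative, 2054 kept direction and call. Genes to which DESeq2 gave no adjusted p were left out of its gene values.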
